A study of Homo sapiens with 6 samples.

Results

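The 10 genes described here are markers of neuronal differentiation and of secretory granules, and they were chosen by name from the 58735 genes listed in each library. They are the neurofilament subunits *NEFL* and *NEFM*, the neuronal tubulin *TUBB3*, the microtubule-associated proteins *MAP2* and *DCX*, the growth cone genes *STMN2* and *GAP43*, the RNA-binding protein gene *ELAVL4*, and the granins *CHGA* and *CHGB*. They were measured by RNA-seq in the established human neuroblastoma line SK-N-AS after transfection of siRNA. The siRNA was directed against Prp19, the splicing factor encoded by *PRPF19* (group siPrp19), or was a negative control (group NC). Each group had 3 libraries, described in the methods of the study as biological replicates of 1 cell line. The labels give 72 h of transfection, while the methods give a shorter time.

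Neuroblastoma arises from sympathoadrenal precursors of the neural crest, and its cells can express genes of both neurons and chromaffin cells. As such cells differentiate, they extend neurites filled with microtubules and neurofilaments. Dense core granules store peptides and catecholamines for regulated release, and granins are the acidic proteins that help to form and load them.

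The values were FPKM, read fragments normalised to the exon length of the gene and to the size of the library, so that levels of different genes can be compared. The libraries are named here by the value columns of the files, NCa to NCc and siPrp19a to siPrp19c. In 4 of the 6 files the column name described another sample than the recorded one. For columns NCb and siPrp19b, the recorded sample belonged to the opposite group. *PRPF19* was at 83.0, 83.1 and 93.0 FPKM in the NC columns and at 19.6, 19.1 and 18.5 FPKM in the siPrp19 columns, a fall of 77.9%, so that its level goes against the recorded label of NCb and siPrp19b. The columns as named were therefore compared 3 against 3, as the main comparison. Results are also given for the 4 libraries whose column and recorded label state the same group, and for the 6 libraries as recorded. Between 14887132 and 19977811 reads were recovered from the FPKM values of each library. The mitochondrial share of reads was 8.29% in siPrp19a and 5.15% to 5.49% in the other libraries. Its part in the results below was not tested.

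*CHGB* was the member that rose. It encodes secretogranin-1 (chromogranin B), a granin of dense core granules, and lies at chr20:5911430-5925361 on the plus strand (GRCh38). Its level was 1.81, 2.00 and 1.99 FPKM in the NC columns and 3.29, 3.82 and 4.63 FPKM in the siPrp19 columns. Every siPrp19 library was above every NC library, and the spread within NC was small. The means were 1.93 ± 0.107 FPKM and 3.92 ± 0.673 FPKM (SD, n = 3 each), a ratio of 2.02. On the log2(FPKM + 1) scale the difference was 0.74 with a standard error of 0.11 and a 95% interval of 0.47 to 1.00 (limma, adjusted *p* = 0.0134). The values rest on 130 to 155 reads per NC library and on 236 to 441 reads per siPrp19 library. Of the 7 members that could be tested, *CHGB* was the only gene past the adjusted threshold of 0.05, that is 1 of 7, while 7.94% of all 13718 tested genes were called, 2.57% higher and 5.37% lower. The call did not hold under every alternative: *CHGB* was past the threshold in 9 of 14 alternatives, and the adjusted *p* ranged from 0.00382 to 0.0634. It missed the threshold when NCa (adjusted *p* = 0.0633), NCb (0.0510), siPrp19b (0.0634) or siPrp19c (0.0511) was left out.

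**Figure D1:**
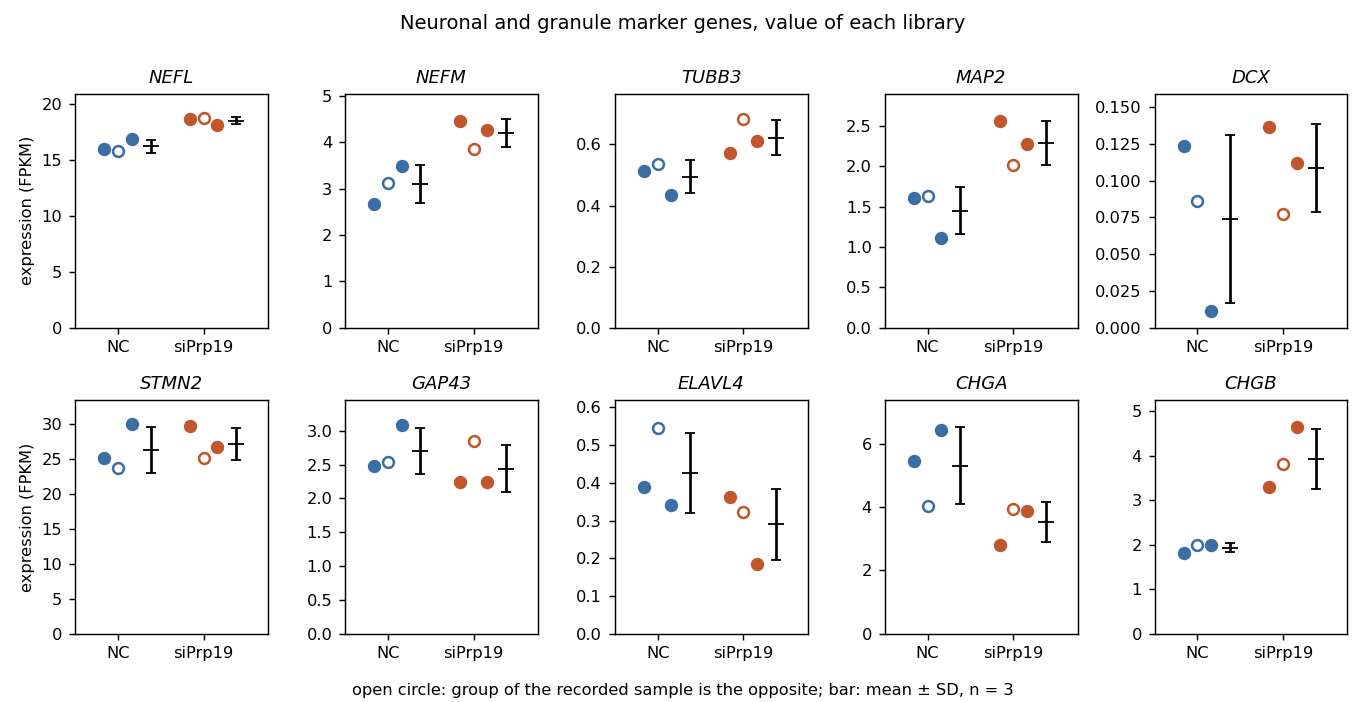
Level of each of the 10 marker genes in FPKM (vertical axes, linear and starting at 0) in the 3 NC and the 3 siPrp19 libraries, with bars for the mean ± SD. Open circles mark NCb and siPrp19b, whose recorded sample is of the opposite group. All 3 siPrp19 points of *CHGB* lie between 3.29 and 4.63 FPKM, above the NC points at 1.81 to 2.00 FPKM, while the points of *STMN2* overlap.

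*CHGA* encodes chromogranin A, the granin that is widely used as a marker of neuroendocrine cells (chr14:92923080-92935293, plus strand). Its level was 5.46, 4.02 and 6.45 FPKM in the NC columns and 2.82, 3.93 and 3.88 FPKM in the siPrp19 columns. The groups did not overlap, but NCb at 4.02 FPKM was close to siPrp19b at 3.93 FPKM. The means were 5.31 ± 1.22 FPKM and 3.54 ± 0.629 FPKM (SD, n = 3 each), and the difference of -0.47 on the log2 scale, with a 95% interval of -0.86 to -0.07, missed the threshold (limma, adjusted *p* = 0.150). No alternative brought *CHGA* past it, and the adjusted *p* ranged from 0.0897 to 0.353.

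The ratio of the 2 granins differed between the groups. Within each library, *CHGA* was at 3.01, 2.01 and 3.24 times the level of *CHGB* in NCa, NCb and NCc. In siPrp19a, siPrp19b and siPrp19c the ratio was 0.855, 1.03 and 0.839. *CHGA* was above *CHGB* in all 3 NC libraries and in siPrp19b, and below it in siPrp19a and siPrp19c. The lowest NC ratio was above the highest siPrp19 ratio, and the mean ratio was 2.76 ± 0.658 against 0.907 ± 0.105 (SD, n = 3 each; two-sided exact permutation test, *p* = 0.1). This is the smallest value that 3 libraries against 3 allow, so the test could not reach 0.05. The ratio was computed after the values of both genes had been seen.

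The promoter of *CHGA* is shown because it carries a cAMP response element (CRE), the letters TGACGTCA, which read the same on both strands. The 2 other named genes with this motif that passed the threshold, *VGF* and *KIF5C*, are shown with it. The sequences are from RefSeq (GRCh38.p14), each the 100 bases directly before the annotated start on the strand of the gene, and the CRE is in capitals. They cover chr14:92923050-92923149 (plus strand), chr7:101165570-101165669 (minus strand) and chr2:148875127-148875226 (plus strand). The RefSeq start of *CHGA* lies inside the gene span given above, which begins at 92923080. Most of its printed bases, the CRE among them, therefore fall within that span.
CHGA: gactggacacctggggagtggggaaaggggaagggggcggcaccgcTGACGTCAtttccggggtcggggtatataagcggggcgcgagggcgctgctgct
VGF: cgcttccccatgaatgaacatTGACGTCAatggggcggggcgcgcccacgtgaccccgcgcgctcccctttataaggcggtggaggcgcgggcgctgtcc
KIF5C: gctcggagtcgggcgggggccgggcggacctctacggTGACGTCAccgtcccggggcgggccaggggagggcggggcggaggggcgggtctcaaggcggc
The CRE begins 54 bases before the start of *CHGA*, 79 before that of *VGF* and 63 before that of *KIF5C*. A window of 300 bases, with 250 before and 50 after the start, was at hand for 6 of the 10 members, and *CHGA* was the 1 of them with a CRE. *CHGB* had no entry. In windows of the same length, 2.25% of 27305 genes held the motif. Among granule genes, the granins included, 4 of 24 with a window held it, and so did 1 of the 7 that rose. The 3 genes shown did not move alike: *VGF* rose, *KIF5C* fell, and *CHGA* was not called.

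*NEFL* and *NEFM* encode the light and medium subunits of neurofilaments, which set the calibre of axons, and lie next to each other on chromosome 8. *NEFL* was at 16.0, 15.8 and 16.9 FPKM in the NC columns and at 18.7, 18.8 and 18.1 FPKM in the siPrp19 columns. *NEFM* was at 2.67, 3.13 and 3.49 FPKM in the NC columns and at 4.45, 3.86 and 4.27 FPKM in the siPrp19 columns. For both genes all siPrp19 libraries were above all NC libraries, with means 1.14 and 1.36 times those of NC, and neither passed the adjusted threshold. The log2 difference of *NEFL* was 0.18, with a 95% interval of 0.04 to 0.33 (limma, adjusted *p* = 0.131), and that of *NEFM* was 0.35, with an interval of 0.11 to 0.58 (adjusted *p* = 0.0824). *NEFL* was called after quantile normalization (adjusted *p* = 0.0455), and *NEFM* was called by voom on the recovered reads (adjusted *p* = 0.0276) and without NCc (0.0478). These settings called 7.94%, 9.99% and 9.87% of all tested genes in turn. Exons of genes on the opposite strand cover 11.3% of the exon length of *NEFL* and 38.9% of that of *NEFM*. The strand setting of the counting is not given in the sources used here, so reads from these partners cannot be told apart.

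*MAP2* encodes a protein that binds and stabilises dendritic microtubules (chr2:209424058-209734118, plus strand). Its level was 1.61, 1.63 and 1.12 FPKM in the NC columns and 2.56, 2.02 and 2.28 FPKM in the siPrp19 columns. The groups did not overlap, with means of 1.45 ± 0.290 FPKM and 2.29 ± 0.273 FPKM (SD, n = 3 each), a ratio of 1.58. The log2 difference of 0.43, with a 95% interval of 0.13 to 0.72, missed the threshold (limma, adjusted *p* = 0.0879). Voom on the recovered reads, 222 to 554 per library, gave 0.76 and called it (adjusted *p* = 0.0178). Voom works on library-scaled log2 counts without the pseudocount of 1 FPKM, and it gave a larger difference for *CHGB* as well (1.09, adjusted *p* = 0.00382).

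*STMN2* and *GAP43* are genes of the growth cone, the motile tip of a neurite. *STMN2* encodes stathmin-2, which acts on microtubule turnover, and was the most abundant member. It was at 25.2, 23.7 and 30.1 FPKM in the NC columns and at 29.7, 25.2 and 26.8 FPKM in the siPrp19 columns. *GAP43*, which encodes a membrane-bound growth protein, was at 2.48, 2.53 and 3.09 FPKM in the NC columns and at 2.24, 2.85 and 2.24 FPKM in the siPrp19 columns. The groups overlapped for both genes. The 95% interval of the log2 difference was -0.20 to 0.31 for *STMN2* (limma, adjusted *p* = 0.824) and -0.37 to 0.16 for *GAP43* (adjusted *p* = 0.619). The value of *STMN2*, 0.05, turned to -0.02 without NCb and to -0.01 without siPrp19a.

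The other 3 members, *TUBB3*, *ELAVL4* and *DCX*, had a mean below the minimum of 1 FPKM and were not tested across genes. *TUBB3* encodes class III beta-tubulin of neurons (chr16:89921392-89938761, plus strand) and was at 0.513, 0.536 and 0.433 FPKM in the NC columns and at 0.572, 0.684 and 0.613 FPKM in the siPrp19 columns. These values rest on 33 to 57 reads per library, and all siPrp19 libraries were above all NC libraries (two-sided exact permutation test, *p* = 0.1, the smallest that 3 against 3 allow). Another gene model on the same strand covers 35.8% of the exon length of *TUBB3* and held at most 1 read in any library. How reads in exons shared by both models were counted is not given in the sources used here. If they were left out, the level of *TUBB3* given here is too low, which was not tested. *ELAVL4* encodes the neuronal RNA-binding protein HuD and was at 0.390, 0.545 and 0.342 FPKM in the NC columns and at 0.364, 0.322 and 0.185 FPKM in the siPrp19 columns. *DCX* encodes doublecortin of migrating neurons and was at 0.124, 0.0864 and 0.0114 FPKM in the NC columns and at 0.137, 0.0772 and 0.112 FPKM in the siPrp19 columns. For both genes the groups overlapped (exact permutation *p* = 0.2 for *ELAVL4* and 0.5 for *DCX*). The values rest on 27 to 56 reads per library for *ELAVL4* and on 2 to 24 for *DCX*.

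Among the 10 members, 5 (*NEFL*, *NEFM*, *TUBB3*, *MAP2* and *CHGB*) were higher in every siPrp19 library than in every NC library, 1 (*CHGA*) was lower, and 4 overlapped. Among all 34468 genes above 0 in any library, 9.06% were higher and 9.19% lower without overlap. Among the 13718 tested genes these shares were 13.2% and 18.1%, and 4 of the 7 tested members were higher and 1 was lower. No test was made over the members as a set.

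The levels of the members spanned more than the differences between the groups. By mean FPKM in the NC columns the order was *STMN2* (26.3), *NEFL* (16.2), *CHGA* (5.31), *NEFM* (3.09), *GAP43* (2.70), *CHGB* (1.93), *MAP2* (1.45), *TUBB3* (0.494), *ELAVL4* (0.426) and *DCX* (0.0739). Of these neighbours, *NEFM* and *GAP43* overlapped in their NC libraries, as did *TUBB3* and *ELAVL4*. In the siPrp19 columns, *NEFM* (4.19) and *CHGB* (3.92) had means above that of *CHGA* (3.54), although the libraries of these 3 genes overlapped there.

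**Figure D2:**
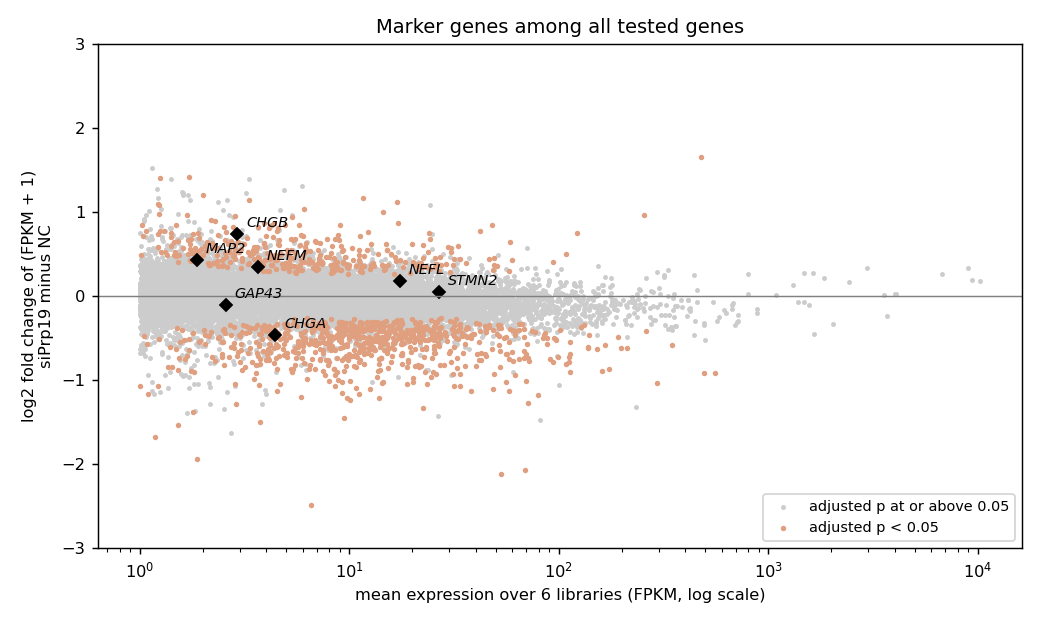
Difference between siPrp19 and NC in log2(FPKM + 1) (vertical axis) against mean FPKM over the 6 libraries (horizontal axis, log scale) for the 13718 tested genes, with the 7 tested markers as black diamonds. Genes past an adjusted *p* of 0.05 are orange, and *CHGB* at 0.74 lies among the called genes that were higher, while *STMN2* at 0.05 lies near 0.

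With the 4 libraries NCa, NCc, siPrp19a and siPrp19c, no member was called by limma. At this size limma called 2 of 13718 genes (0.0146%), 1685 genes had an unadjusted *p* below 0.05, and voom on the recovered reads called 266 (1.94%). The difference of *CHGB* was 0.76 in the 4 libraries, close to the 0.74 of all 6 (limma, adjusted *p* = 0.177), and voom called it with 1.13 (adjusted *p* = 0.0225). Voom also called *MAP2*, with 0.94 (adjusted *p* = 0.0288). *NEFM* stood at 0.40 (adjusted *p* = 0.371) and *CHGA* at -0.68 (adjusted *p* = 0.201) by limma in these libraries.

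As recorded, the group labelled NC held NCa, NCc and siPrp19b, and the group labelled siPrp19 held NCb, siPrp19a and siPrp19c. Limma then called 0 genes (0.0%), and 191 genes had an unadjusted *p* below 0.05. *CHGB* was at a mean of 2.54 ± 1.11 FPKM in the libraries labelled NC and 3.31 ± 1.31 FPKM in those labelled siPrp19 (SD, n = 3 each), with a log2 difference of 0.28 and a standard error of 0.28 (adjusted *p* = 1.00). *PRPF19* itself had a mean of 65.0 ± 40.1 FPKM against 40.4 ± 36.9 FPKM in this grouping. The direction was the same as with the columns as named for 6 of the 7 tested members, and *STMN2* turned from 0.05 to -0.01. The groupings share the group of 4 of the 6 libraries, so like directions are no separate support.

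**Figure D3:**
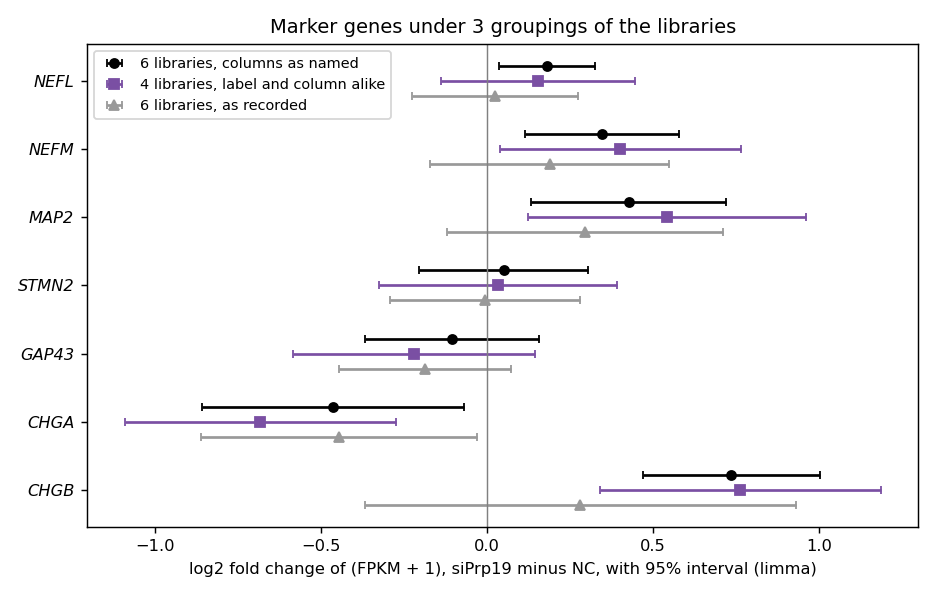
Difference between siPrp19 and NC in log2(FPKM + 1) (horizontal axis) with its 95% interval from limma for the 7 tested markers (rows), in the 6 libraries by column name, in the 4 libraries whose label and column state the same group, and in the 6 libraries as recorded. *CHGB* stands at 0.74, 0.76 and 0.28 in the 3 groupings.

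Other genes of dense core granules and exocytosis were examined as a list of 31. Of these, 22 were tested, 8 rose and 1 fell with the columns as named, so that 40.9% were called where 7.94% of all tested genes were. The median difference of the list was 0.21, against -0.02 over all tested genes. This list, like the others, was chosen with earlier results of these data known, so its share of called genes is no independent support. By role, the genes that rose were the granins and granule peptides *VGF*, *SCG3*, *NPY* and *GAL*, the peptide-amidating enzyme gene *PAM*, the granule membrane gene *PTPRN*, and the vesicle genes *RAB3A* and *SYP*. The gene that fell was *SYT4*, which encodes a synaptotagmin, at -0.50 (limma, adjusted *p* = 0.0285). The vesicle fusion genes *SNAP25*, *VAMP2* and *STX1A* were not called. Between 5 and 10 of the list were called when each library was left out in turn, with 5 called, all higher, without NCa, NCb, siPrp19b or siPrp19c, and none was called in the 4 libraries by limma.

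*VGF*, which encodes a neuropeptide precursor of the granin family, was the most abundant of them. It was at 206.1, 213.1 and 273.5 FPKM in the NC columns and at 653.3, 808.1 and 716.4 FPKM in the siPrp19 columns, without overlap, a log2 difference of 1.65 ± 0.15 (SE; limma, adjusted *p* = 0.00254). *NPY*, the gene of neuropeptide Y, was at 154.7, 158.7 and 205.7 FPKM in the NC columns and at 336.1, 337.1 and 331.6 FPKM in the siPrp19 columns (0.96 ± 0.13, adjusted *p* = 0.00845). *SCG3*, which encodes secretogranin-3, a granin that binds granule membranes, had a level closer to that of *CHGB*. It was at 1.581, 1.636 and 1.596 FPKM in the NC columns and at 4.56, 3.60 and 4.02 FPKM in the siPrp19 columns (0.95 ± 0.09, adjusted *p* = 0.00347). *RAB3A*, a small GTPase of secretory vesicles, was at 2.85, 3.13 and 4.03 FPKM and at 6.999, 6.999 and 7.91 FPKM in turn (0.94 ± 0.11, adjusted *p* = 0.00658). For each of these 4 genes the groups were apart, as the rule for naming them required. Each was past the threshold in 14 of 14 alternatives with the columns as named. They were picked as the called genes of the list with the largest differences, and the alternatives reuse the same libraries. Neither result is therefore separate support. In the 4 libraries, voom called all 4, with an adjusted *p* from 0.00131 for *VGF* to 0.0195 for *RAB3A*.

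**Figure D4:**
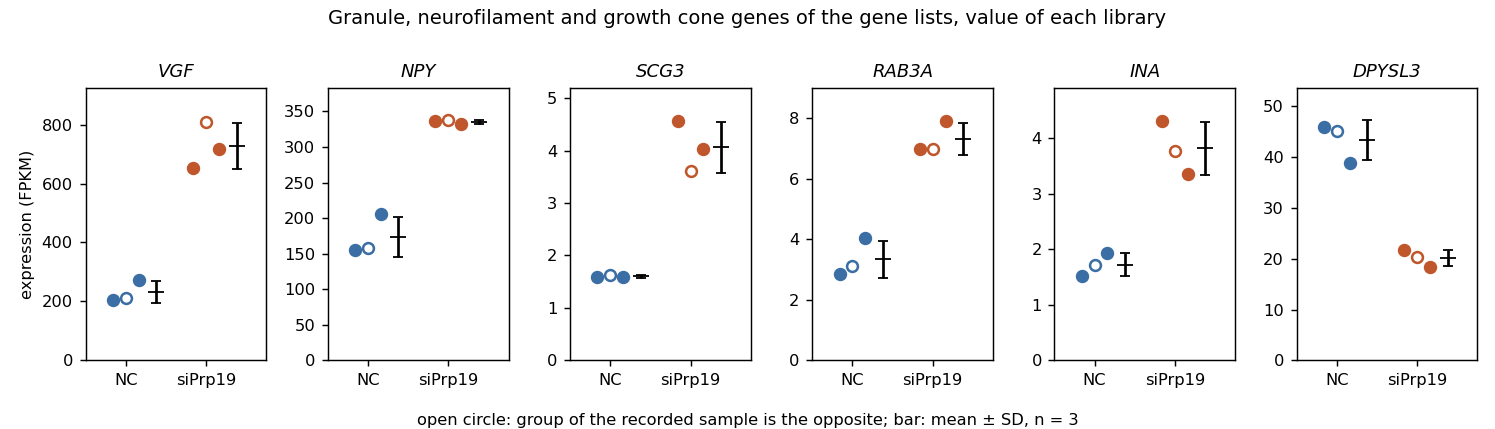
Level in FPKM (vertical axes, linear and starting at 0) of *VGF*, *NPY*, *SCG3*, *RAB3A*, *INA* and *DPYSL3* in the 3 NC and 3 siPrp19 libraries, with bars for the mean ± SD. Open circles mark NCb and siPrp19b. The siPrp19 points of *VGF* lie at 653.3 to 808.1 FPKM, above the NC points at 206.1 to 273.5 FPKM, and those of *DPYSL3* lie below the NC points.

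Cytoskeletal and growth cone genes other than the members moved in both directions. Of 30 listed, 24 were tested, 2 rose (*INA* and *ENO2*) and 3 fell (*DPYSL3*, *MARCKS* and *KIF5C*), and the median difference was 0.00. Thus 20.8% were called, where 7.94% of all tested genes were, 2.57% higher and 5.37% lower. The number called was 2, with 1 gene in each direction, without NCa, NCb, siPrp19b or siPrp19c. *INA* encodes alpha-internexin, the intermediate filament protein that assembles with the neurofilament subunits. It was at 1.52, 1.72 and 1.93 FPKM in the NC columns and at 4.31, 3.77 and 3.36 FPKM in the siPrp19 columns (0.82 ± 0.11, limma, adjusted *p* = 0.00821). The level of *INA* relative to *NEFL* was 0.0952, 0.109 and 0.114 in the NC columns and 0.231, 0.201 and 0.185 in the siPrp19 columns (exact permutation *p* = 0.1, the smallest possible). *INA* was named because it was called without overlap, so this ratio is no separate support. The ratio of *NEFM* to *NEFL* overlapped between the groups (exact permutation *p* = 0.2). *ENO2*, the gene of neuron-specific enolase, rose from a mean of 23.6 ± 2.31 FPKM to 35.7 ± 1.22 FPKM (0.58 ± 0.08, adjusted *p* = 0.0112).

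*DPYSL3*, a gene of the collapsin response mediator family that acts on growth cones, was at 46.0, 45.1 and 38.8 FPKM in the NC columns and at 21.6, 20.3 and 18.5 FPKM in the siPrp19 columns. Its difference of -1.07 ± 0.09 (limma, adjusted *p* = 0.00254) was the furthest from 0 in the list. *KIF5C*, a kinesin heavy chain gene of neurons, fell from a mean of 9.88 ± 0.906 FPKM to 6.12 ± 0.827 FPKM (-0.61 ± 0.11, adjusted *p* = 0.0196). *MARCKS*, which encodes an actin-binding substrate of protein kinase C, fell by 0.47 on the log2 scale (adjusted *p* = 0.0166). *ENO2* missed the threshold in 4 of the 6 fits that left out a library, with an adjusted *p* up to 0.0625, and *KIF5C* in the same 4, up to 0.0842.

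Neuronal RNA-binding protein genes were mostly weakly expressed, as *ELAVL4* was. Of 12 listed, 3 were tested (*ELAVL2*, *RBFOX2* and *PTBP2*) and none was called by limma or voom. *ELAVL2*, a close relative of *ELAVL4*, had a mean of 3.38 ± 0.229 FPKM in the NC columns and 2.78 ± 0.0617 FPKM in the siPrp19 columns (limma, adjusted *p* = 0.157). *RBFOX2*, a splicing factor gene that is not limited to neurons, was at 16.9 ± 2.74 FPKM and 17.5 ± 1.09 FPKM in turn (adjusted *p* = 0.811).

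Genes of catecholamine synthesis and uptake were examined as a list of 5. Of the 4 tested, 3 were lower and 1 was higher without overlap, where 18.1% and 13.2% of all tested genes were. The median difference was -0.29, and the summed level was 59.4 to 65.7 FPKM in the NC columns and 43.7 to 47.2 FPKM in the siPrp19 columns. *DDC* was called lower and *GCH1* higher, that is 50% of those tested, where 7.94% of all tested genes were called. *DDC*, the gene of the decarboxylase that makes dopamine, fell from a mean of 41.3 ± 3.66 FPKM to 24.3 ± 0.732 FPKM (-0.74 ± 0.08, limma, adjusted *p* = 0.00553). *GCH1*, which acts in the synthesis of the cofactor of tyrosine hydroxylase, rose from 7.95 ± 0.268 FPKM to 10.1 ± 0.156 FPKM (0.31 ± 0.06, adjusted *p* = 0.0263), and missed the threshold without NCa, NCb, siPrp19b or siPrp19c (adjusted *p* from 0.101 to 0.127). *DBH* was not called (adjusted *p* = 0.169), and *TH*, which encodes tyrosine hydroxylase, was below 1 FPKM in every library.

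The repressor REST silences many neuronal genes, among them granule genes, in cells outside the nervous system. None of the 8 genes of REST and its complex was called, where 7.94% of all tested genes were, and their median difference was -0.08. *HDAC1*, the most abundant of them, was at 38.3 ± 2.35 FPKM in the NC columns and 42.4 ± 2.77 FPKM in the siPrp19 columns (limma, adjusted *p* = 0.351), and it was called only after quantile normalization (adjusted *p* = 0.0483). *KDM1A*, a histone demethylase gene, was at 33.0 ± 1.68 FPKM and 31.2 ± 1.97 FPKM (adjusted *p* = 0.581). Of 6 broadly expressed relatives of the members, *TUBB6* was called lower (-0.35 ± 0.08, adjusted *p* = 0.0481). *TUBB*, the main beta-tubulin gene, was at 393.6 ± 22.5 FPKM and 298.0 ± 16.1 FPKM (adjusted *p* = 0.0517). All 6 relatives had a negative difference, as did 7411 of the 13718 tested genes. Of the 6, 5 were lower without overlap, against 18.1% of all tested genes. The call of *TUBB6* held in 3 of 14 alternatives.

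Marker lists of cell types were read beside these results. The samples were cultures of the established line SK-N-AS, so the lists are read as levels of genes in that line. Among all tested genes, 5.37% were called lower. Among markers of adrenergic neuroblastoma, *HAND2* was at 162.1 to 169.9 FPKM in the NC columns and at 117.4 to 144.0 FPKM in the siPrp19 columns (limma, adjusted *p* = 0.101), and *GATA3* was at 28.6 to 30.7 FPKM and 22.8 to 25.4 FPKM in turn (adjusted *p* = 0.0550). Of 8 mesenchymal markers, *YAP1* and *WWTR1* fell (adjusted *p* = 0.00182 and 0.0146), and the summed level was 291.4 to 325.9 FPKM against 227.8 to 244.0 FPKM. Of 4 fibroblast markers, *LUM* and *PDGFRA* fell (adjusted *p* = 0.0225 and 0.0171), and the summed level was 670.6 to 680.5 FPKM against 527.6 to 607.5 FPKM. Of 3 leukocyte markers, *PTPRC* fell (adjusted *p* = 0.0202), lying between 24.9 and 30.7 FPKM in the NC columns and between 16.9 and 20.4 FPKM in the siPrp19 columns, while *CD3E* was listed at 0 in every library and *CD68* was below 0.1 FPKM. The 5 Schwann cell markers summed to 0.639 to 0.882 FPKM against 0.785 to 1.29 FPKM, with *S100B* at 0 in 5 libraries, and the 3 epithelial markers to 0.210 to 0.283 FPKM against 0.123 to 0.258 FPKM. In bulk samples of a line, fewer cells in a given state and less RNA per cell cannot be told apart. The part of these markers in the results above was not tested.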

How the data were processed

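RNA-seq libraries of SK-N-AS cells (3 NC, 3 siPrp19) were analysed. The authors deposited 1 FPKM value per gene and library for 58735 Ensembl genes. The submitters' processing notes name HISAT2 2.0.5, featureCounts 1.5.0-p3 and hg38. The strand setting is not given in the sources used here. DESeq2, the tool of the study, needs counts and was not applied to FPKM.

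All 58735 identifiers were found in GENCODE 29. Of these, 58207 took their symbol from a current names table and 528 from GENCODE 29. FPKM times exon length gave a whole number of reads for 100% of the values above 0 in every library, and between 14887132 and 19977811 reads were recovered per library.

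Genes with a mean of at least 1 FPKM over the 6 libraries (13718) were fitted on log2(FPKM + 1) with limma 3.58.1 (R 4.3.3, mean-variance trend, no block) and Benjamini-Hochberg adjustment over all of them, at a threshold of 0.05. The pseudocount makes the differences of low genes smaller. Groups followed the column names, with 2 other groupings beside them: the 4 libraries whose name and recorded label state the same group, and the 6 as recorded. Members below the filter got a two-sided exact permutation test. The named genes were *PRPF19*, the 10 members and, from each gene list, up to 4 called genes with the largest difference whose groups did not overlap, or else the most abundant up to 2. Members of marker lists, *SYT4*, *MARCKS* and other genes outside this rule were named after their values were seen. Some genes of the lists are not reported here. The members and lists were chosen with earlier results of these data known.

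Alternatives were a pseudocount of 0.1, no filter, 3 other scalings, no trend, voom on recovered reads, a replicate block and the omission of single libraries. Several of these were added for the 4 libraries after the data were seen. The procedure was tested on simulated data in which 200 genes changed 3-fold. That test does not cover smaller changes, such as those of the members. Python 3.11.15, numpy 2.4.6, pandas 2.3.3 and matplotlib 3.10.9 were used.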

Additional observations from a re-analysis of the deposited data

How the results depend on the processing

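With the columns as named, 1089 genes were called (353 higher, 736 lower). The split was 502 higher and 587 lower after quantile normalization and 747 higher and 623 lower with voom, which called 1370. The count was 512 with no filter on low values, 679 with each library scaled to the same sum of FPKM, and 253 to 1354 when each library was left out in turn (264 without NCa, 335 without NCb, 270 without siPrp19b and 253 without siPrp19c). In the 4 libraries, where 2 genes were called, the count was 0 with no filter, 266 with voom and 0 to 70 when each library was left out, with the lone library of a group assumed to vary like the others. As recorded, limma called 0 genes, also when each library was left out in turn. Of 491 differences of single genes under alternatives, 432 kept their direction and side of the threshold, 35 lost and 13 gained the call, and 11 changed sign. The cause was not tested. The sign changes were *KDM1A* (0.0318 after quantile normalization), and, with 1 library left out, *RBFOX2* (-0.0706 without NCc, highest 0.147) and *STMN2* (-0.0198 without NCb and -0.0124 without siPrp19a, highest 0.147) with the columns as named. In the 4 libraries *STMN2* ranged from -0.0899 without NCa, past -0.0388 without siPrp19a, to 0.157. As recorded, *STMN2* ranged from -0.0824 to 0.0754 and 0.0770, and *NEFL* from -0.0237, -0.0205 and -0.000169 to 0.0937.

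Same-numbered libraries, by the letters of the columns, deviated together weakly for a and c and not for b (r = 0.134, 0.204 and -0.049). Libraries of unlike letters gave r from -0.199 to 0.131, so the values of a and c were the highest. As b did not follow, the numbers were not taken to pair the samples. A fit with the replicate block called 928 genes with the columns as named, 0 in the 4 libraries and 0 as recorded, and *CHGB* kept its call (adjusted *p* = 0.0184), while *GCH1* (0.0582) and *TUBB6* (0.0698) lost theirs.

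*DCX*, *ELAVL4* and *TUBB3* rest on 2 to 57 reads per library, and the exact test of 3 libraries against 3 cannot go below 0.1. Which grouping holds for NCb and siPrp19b was not tested beyond the level of *PRPF19*.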
